A study of Mus musculus with 32 samples.

Results

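Interferon-stimulated genes are the genes that cells turn on after an interferon binds its receptor. A list of 47 mouse symbols of this response was looked up in a table of reads counted on 53700 genes, and each symbol matched 1 gene of the table. By role they were 4 transcription factors, 4 sensors of RNA and other nucleic acids, 5 oligoadenylate synthetases and their relatives (OAS family), 6 genes of the ISG15 and IFIT group, 7 antiviral effectors, 10 interferon-inducible GTPases, 2 immunoproteasome subunits, 4 PARP and ubiquitin ligase genes and 5 others. The symbols are known interferon targets, looked up by name.

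Type I interferons act through the receptor chains IFNAR1 and IFNAR2 and the kinases JAK1 and TYK2. A transcription factor complex with STAT2 and IRF9 then binds the interferon-stimulated response element (ISRE) in front of its target genes. Interferon gamma acts through IFNGR1 and IFNGR2, and its signal reaches the gamma-activated site (GAS) of its targets, which include *Irf1* and many GTPases. In the kidney, tubule cells, endothelium and macrophages can all respond in this way, and the products detect viral RNA, degrade it or block virus assembly and entry.

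RNA sequencing was performed on 32 kidneys of male C57BL/6 mice that carried iKspCre-*Pkd1*del, a tamoxifen-inducible Cre under a promoter of tubule epithelium together with floxed *Pkd1*. The 12 PKD mice and the 12 PKD + Salsalate mice had received tamoxifen (150 mg/kg) at days 18 and 19 and were 95 days old at collection. From day 81 the PKD + Salsalate mice were fed chow with 2.5 g/kg salsalate, a prodrug of salicylate, for 2 weeks, and the PKD mice stayed on normal chow. The 8 wildtype mice had not received tamoxifen and were 109 days old, so that *Pkd1* loss, tamoxifen and age cannot be told apart between wildtype and the PKD groups. PKD mice that reached end-stage renal disease earlier were not part of the groups, and per the study's methods the 12 mice of either PKD group were picked from more animals for comparably mild cystic disease by kidney weight relative to body weight. The libraries came from whole kidney, while Cre acts in tubule cells, and in such bulk samples fewer cells of a type and less RNA per cell cannot be told apart.

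Total counts on genes ranged from 11193136 to 109807664 per kidney, with a median of 17242801. The whole-gene count of *Pkd1*, from which Cre removes only part, does not check the deletion, and its level was between 53.1 and 86.4 CPM (counts scaled by library total) in wildtype and between 70.7 and 113 CPM in PKD. Proximal tubule markers summed to at least 6068 CPM in each wildtype kidney, as in whole kidney. The names of 5 wildtype libraries (replicates 1 to 5) end in R in the table, those of the other 3 (replicates 6 to 8) do not, and no source used here explains the letter. In the R libraries 13.2% to 15.7% of the alignments lay on no gene, against 7.60% to 9.77% in the other 3 wildtype libraries and 7.65% to 16.4% in PKD. Because these sets stood apart, each comparison with wildtype is also given against either set alone. PKD replicate 10 held transcripts of liver (a summed level of 12 liver markers of 4558 CPM, while the median of the PKD group was 211 CPM) and PKD replicate 2 stood apart in the GTPases, so both were also left out together. PKD + Salsalate replicate 3 had the lowest value of its group for 28 of the 47 members, and PKD + Salsalate replicate 11 the highest for 18.

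To look at the promoters of these genes, the windows of the RefSeq table (build GRCm38.p6, 250 bases before to 50 bases after each start) were searched for the letters GAAANNGAAA, an ISRE-like core, on either strand. The table held 36 of the 47 members. The ISRE-like letters were found for 18 of these 36 members and for 1079 of all 27025 genes of the table (3.99%). The GAS-like letters TTCNNNGAA, which read the same on both strands in their fixed bases, were found for 12 members (33.3%) and for 9.55% of all genes, and 8 members held both. In the 200 bases before the start alone, 14 members (38.9%) and 2.65% of all genes held the ISRE-like letters. The ISRE-like letters were in the whole windows of 7 of the 8 GTPases and of both sensors in the table, while none of the immunoproteasome, PARP and ubiquitin ligase or other members held them.

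The windows of the members described one by one below that hold an ISRE-like match on the upstream side are shown here because the letters resemble the element that the complex with STAT2 and IRF9 binds. Each sequence was cut from the 250 bases before the RefSeq start. Those 250 bases matched GRCm39 exactly and at 1 place of the chromosome, read on the strand of the gene. The shorter sequences were not searched alone. The coordinates are those of GRCm39, the build of the counts. Sequences run 5′ to 3′ on the strand of the gene. Capitals mark GAAANNGAAA or the same letters read from the opposite strand, with overlapping matches joined. Windows that lie in annotated exons were cut to 30 bases or fewer.
Stat2, chr10:128106120-128106179, plus strand: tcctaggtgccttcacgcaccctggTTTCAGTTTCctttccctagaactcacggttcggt
Oas1a, chr5:121045589-121045612, minus strand: tcggGAAATGGAAACTGAAAatct
Ifit1, chr19:34618179-34618238, plus strand: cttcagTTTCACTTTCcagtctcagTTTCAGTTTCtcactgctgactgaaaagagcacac
Rsad2, chr12:26506537-26506596, minus strand: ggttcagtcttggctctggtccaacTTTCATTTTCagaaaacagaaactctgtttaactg
Gbp2, chr3:142326355-142326384, plus strand: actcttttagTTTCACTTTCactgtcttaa
Gbp3, chr3:142265756-142265785, plus strand: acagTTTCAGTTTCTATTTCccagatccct
Gbp7, chr3:142236034-142236063, plus strand: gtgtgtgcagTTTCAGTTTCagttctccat
Igtp, chr11:58090338-58090367, plus strand: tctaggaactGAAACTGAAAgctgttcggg
Irgm1, chr11:48762252-48762281, minus strand: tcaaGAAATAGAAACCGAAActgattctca
Irgm2, chr11:58105714-58105773, plus strand: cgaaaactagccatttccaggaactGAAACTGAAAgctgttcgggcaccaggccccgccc
Gm12250, chr11:58074613-58074642, plus strand: agaaatctgcTTTCAGTTTCatgttcttgg
The matches ended between 4 bases (*Oas1a*) and 212 bases (*Stat2*) before the RefSeq start. In the GRCm39 annotation the printed windows of *Gbp2*, *Gbp3*, *Gbp7*, *Igtp* and *Irgm1* lay wholly in exons. Those of *Oas1a* and *Gm12250* lay in exons in part. The windows of *Gbp2*, *Gbp3*, *Igtp*, *Irgm1*, *Irgm2* and *Oas1a* began after the annotated gene start, so they are not upstream of it. *Ifit1* carried a pair of separate matches, and in *Gbp3*, *Irgm1* and *Oas1a* overlapping matches formed a longer repeat. The windows of *Igtp* and *Irgm2*, neighbours on chromosome 11, were identical at 57 of the 59 letters compared. Such a match is a description of letters and not proof of a bound site.

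Levels are given as CPM with library totals scaled by the trimmed mean of M-values (TMM). Of the 47 members, 46 passed the filter on low counts (25% or more of the kidneys above 1 on the log2 CPM scale). *Oas3* did not, and its level was between 0.223 and 1.60 CPM in wildtype, between 0.559 and 2.13 CPM in PKD and between 0.666 and 1.65 CPM in PKD + Salsalate. Per kilobase of annotated exon, the median levels in PKD ran from 0.184 CPM for *Oas3* and 0.764 CPM for *Oas1a* to 30.0 CPM for *Bst2* and 56.8 CPM for *Ifitm3*, so the transcripts of the membrane-bound antiviral proteins were the most abundant of the members.

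To place each kidney, the log2(CPM + 1) of every member was set against its mean over all kidneys, and the median over the 46 members was taken. In the R libraries this median was 0.29, -0.02, 0.27, -0.40 and 0.15 for replicates 1 to 5, and in the other 3 wildtype kidneys it was -0.57, -0.65 and -0.19. PKD kidneys lay between -0.02 and 0.27 (median 0.07) and PKD + Salsalate kidneys between -0.35 and 0.16 (median -0.01). The wildtype kidneys thus spread more widely (SD 0.37, n = 8) than the PKD (SD 0.10, n = 12) and PKD + Salsalate kidneys (SD 0.14, n = 12). Their values lay on both sides of the PKD range. The SD of 0.37 includes the difference between the wildtype sets, and it was 0.28 within the R libraries (n = 5) and 0.25 within the others (n = 3). In the OAS family the wildtype kidneys reached from -0.96 to 0.15 and the PKD kidneys from -0.05 to 0.47, and wildtype replicate 5, the highest of its group, was above several PKD kidneys. For the ISG15 and IFIT group the 3 wildtype kidneys without R (-0.82 to -0.21) were below each PKD kidney (0.00 to 0.21), while the R libraries (-0.31 to 0.29) enclosed them.

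**Figure D1:**
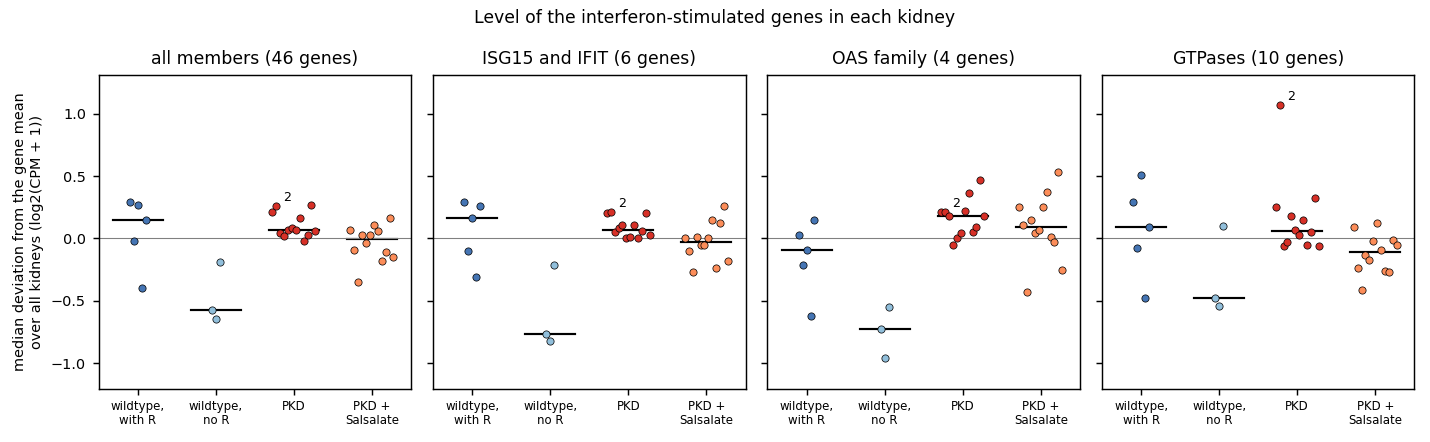
Median deviation of the interferon-stimulated genes from their mean over all kidneys, in log2(CPM + 1), for each kidney (points) by group, over all 46 tested members and in 3 role groups; lines are group medians, and 2 marks PKD replicate 2. The 3 wildtype kidneys named without R lie below all PKD kidneys in each panel but that of the GTPases, and PKD replicate 2 stands at 1.07 in the GTPases.

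The comparison of PKD with wildtype asks how the interferon response differs in kidneys with induced *Pkd1* loss. Of the 46 members tested, 17 were higher in PKD, 2 were lower and 27 were not called by edgeR's quasi-likelihood test with Benjamini-Hochberg adjustment over 13961 genes at 0.05. Over all genes tested, 24.1% were called higher and 25.0% lower. The median log2 fold change of the members was 0.23, with 34 of 46 above 0, and that of all genes was -0.01. The members higher in PKD included *Oas2*, *Mx1*, *Gbp2*, *Rnf213*, *Ifitm3* and *Bst2*, and those lower were *Cmpk2* and *Ifi44*.

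The choice of wildtype libraries changed this picture for a large part of the members. Against the 5 R libraries alone, 10 members were higher and 9 lower (30.7% and 28.9% of all genes), with a median of 0.05. Against the other 3 alone, 38 of 45 tested were higher and 0 lower (20.9% and 19.9% of all genes), with a median of 0.60. Called higher against either set were 9 members, *Oas2*, *Oasl1*, *Mx1*, *Bst2*, *Ifitm3*, *Samd9l*, *Gbp2*, *Rnf213* and *Ifi35*, and 0 members were called lower against both. Another 8 members, *Irf7*, *Eif2ak2*, *Ifit1*, *Gbp3*, *Dtx3l*, *Ifi44*, *Xaf1* and *Sp100*, were called lower against the R libraries and higher against the others. How many of all genes were called in opposite directions, or higher against both sets, was not counted. Between the wildtype sets themselves, 24.4% of all genes were called higher in the R libraries and 23.7% lower. Without PKD replicates 2 and 10, 16 members were higher and 2 lower of 45, beside 3188 higher and 3372 lower of all 13936 genes tested there.

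**Figure D2:**
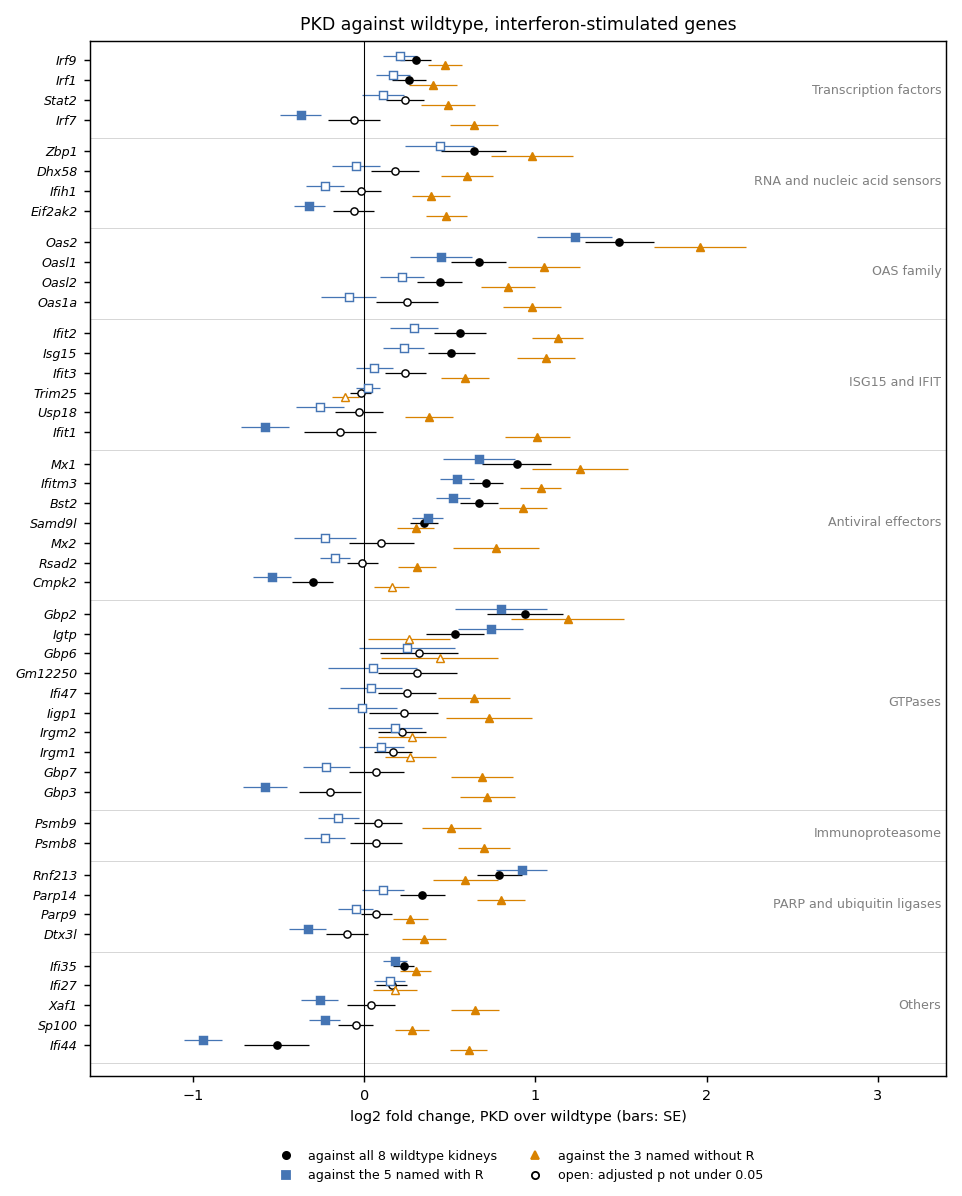
Log2 fold change of PKD over wildtype (x axis, bars are the SE) for each of the 46 tested interferon-stimulated genes, grouped by role, against all 8 wildtype kidneys (circles), the 5 named with R (squares) and the 3 named without R (triangles); filled symbols have an adjusted p under 0.05. Against the 3 libraries without R nearly all symbols lie to the right of 0, while against the R libraries they fall on both sides.

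Among the transcription factors, 2 of 4 were higher in PKD and 0 lower (median log2 fold change 0.25). *Irf9*, the DNA-binding part of the type I complex (ENSMUSG00000002325), had 19.5, 32.0 and 39.9 CPM in wildtype (lowest, median, highest) and 30.4, 37.2 and 43.2 CPM in PKD. The PKD kidneys were higher with overlap, by 0.30 ± 0.09 on the log2 scale (SE, adjusted p = 0.0081), but against the R libraries the difference of 0.21 ± 0.10 was not called (adjusted p = 0.079). *Irf1*, a factor raised strongly by interferon gamma, had 26.3, 38.0 and 46.0 CPM in wildtype and 34.1, 42.6 and 56.8 CPM in PKD. Its difference was 0.26 ± 0.10 (adjusted p = 0.039), and it was lost without PKD replicates 2 and 10 (0.21, adjusted p = 0.086) or without any 1 of 9 kidneys (wildtype replicates 4, 6 and 7, PKD replicates 1, 2, 5, 8 and 11 and PKD + Salsalate replicate 4). *Stat2*, the partner of IRF9, had 30.7, 50.4 and 58.8 CPM in wildtype and 40.7, 54.5 and 69.2 CPM in PKD, a difference of 0.24 ± 0.11 that was not called (adjusted p = 0.073).

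*Irf7* (ENSMUSG00000025498), the factor that amplifies type I interferon production, differed in direction with the wildtype libraries used. Its levels in the R libraries were 28.3 CPM at the lowest, 47.3 CPM at the median and 64.1 CPM at the highest. In the other 3 wildtype kidneys they were 18.1, 21.3 and 29.1 CPM, and in PKD they ran from 29.8 to 44.3 CPM with a median of 35.1 CPM. The median of PKD thus lay between those of the sets, and each of the 3 was below all PKD kidneys. *Irf7* was lower in PKD than in the R libraries (-0.37 ± 0.12, adjusted p = 0.01), higher than in the other 3 (0.64 ± 0.14, adjusted p = 0.0007), and not called against all 8 (-0.06 ± 0.15, adjusted p = 0.77). Exons of *Irf7* overlap *Phrf1* on the other strand.

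Of the nucleic acid sensors, 1 of 4 was higher and 0 lower (median 0.08). *Zbp1*, a sensor of Z-form nucleic acid that can start cell death, had 1.93, 4.18 and 6.46 CPM in wildtype and 4.05, 5.74 and 8.62 CPM in PKD, so the groups overlapped. It was 0.64 ± 0.19 higher in PKD (adjusted p = 0.0049), and 0.44 ± 0.20 against the R libraries, which was not called (adjusted p = 0.062). *Eif2ak2*, the kinase PKR that stops translation when viral RNA is present, had 40.8 to 52.8 CPM in the R libraries, 22.5 to 27.9 CPM in the other wildtype kidneys and 29.1 to 49.8 CPM in PKD. Every R library was above every other wildtype kidney, and each of these 3 was below all PKD kidneys. The log2 fold change was -0.32 ± 0.09 against the R libraries (adjusted p = 0.0034) and 0.48 ± 0.12 against those without R (adjusted p = 0.0016). *Ifih1* (MDA5) and *Dhx58* (LGP2), which bind viral RNA in the cytoplasm, had differences of -0.02 ± 0.12 and 0.18 ± 0.14 and were not called.

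In the OAS family, enzymes whose product activates RNase L and their relatives, 3 of 4 tested members were higher and 0 lower (median 0.55). *Oas2* (ENSMUSG00000032690, chr5:120868398-120887933) had 2.98, 8.48 and 12.2 CPM in wildtype and 14.0, 20.4 and 32.6 CPM in PKD, without overlap. It had the largest log2 fold change of the 46 members, 1.49 ± 0.20 (2.81-fold, adjusted p = 3.8e-07). The difference was 1.23 ± 0.22 against the R libraries and 1.96 ± 0.27 against the other 3. *Oasl1* was 0.67 ± 0.16 higher (adjusted p = 0.00074) and was also called against either set alone. *Oasl2* was 0.44 ± 0.13 higher (adjusted p = 0.0055), but 0.22 ± 0.13 against the R libraries was not called. *Oas1a*, the smallest change of the family, had 2.22, 4.69 and 8.97 CPM in wildtype and 5.12, 6.11 and 7.38 CPM in PKD, and its difference of 0.25 ± 0.18 was not called (adjusted p = 0.23).

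In the ISG15 and IFIT group, 2 of 6 were higher and 0 lower (median 0.11). *Ifit2*, which binds viral RNA and hinders its translation, had 10.8, 16.0 and 29.2 CPM in wildtype and 22.0, 27.1 and 40.7 CPM in PKD. It was 0.56 ± 0.15 higher (adjusted p = 0.0023), and 0.29 ± 0.14 against the R libraries was not called (adjusted p = 0.078). *Isg15*, a ubiquitin-like protein attached to other proteins, was 0.51 ± 0.14 higher (adjusted p = 0.0037), with 0.23 ± 0.12 against the R libraries, not called. *Ifit1* (ENSMUSG00000034459, chr19:34618271-34632174), a sensor of foreign RNA caps, had 11.8, 22.2 and 27.4 CPM in the R libraries, 4.13, 5.77 and 9.94 CPM in the other wildtype kidneys and 11.2, 13.2 and 19.5 CPM in PKD. The 3 wildtype kidneys without R were below all R and PKD kidneys, and the R libraries overlapped PKD and reached above it. Its log2 fold change in PKD was -0.58 ± 0.14 against the R libraries (adjusted p = 0.00086) and 1.01 ± 0.19 against those without R (adjusted p = 0.00014). *Ifit3* (0.24 ± 0.12), *Usp18*, which removes ISG15 from proteins (-0.03 ± 0.14), and *Trim25*, a ubiquitin ligase (-0.02 ± 0.06), were not called.

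The antiviral effectors held 4 higher and 1 lower of 7 (median 0.35). *Mx1*, the gene of a dynamin-like GTPase, had 0.889, 2.85 and 3.34 CPM in wildtype and 3.23, 4.32 and 6.47 CPM in PKD, with hardly any overlap, a difference of 0.89 ± 0.20 (adjusted p = 0.0004). *Ifitm3*, which blocks virus entry, had 33.1, 41.9 and 60.6 CPM in wildtype and 56.6, 72.8 and 79.8 CPM in PKD (0.71 ± 0.10, adjusted p = 8.3e-07). *Bst2* (tetherin), which holds budding virus at the membrane, had 13.5, 24.6 and 27.2 CPM in wildtype and 29.4, 36.4 and 43.7 CPM in PKD and did not overlap (0.67 ± 0.11, adjusted p = 3.8e-06). These 3 genes were called higher against either wildtype set. *Samd9l* was 0.35 ± 0.08 higher (adjusted p = 0.00046).

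*Cmpk2*, a mitochondrial nucleotide kinase, and its genomic neighbour *Rsad2* (viperin) did not follow. *Cmpk2* had 14.4, 24.9 and 28.0 CPM in the R libraries, 13.9, 13.9 and 14.3 CPM in the others and 12.6, 15.6 and 19.8 CPM in PKD. Its log2 fold change in PKD was -0.30 ± 0.12 (adjusted p = 0.03) against all 8, -0.54 ± 0.11 against the R libraries, and 0.16 ± 0.10 against the others, which was not called. Leaving out wildtype replicate 1, 3 or 5 ended the call (highest adjusted p 0.12). *Rsad2* had 39.4, 58.2 and 70.5 CPM in wildtype and 45.3, 56.4 and 64.5 CPM in PKD, a difference of -0.01 ± 0.09, and *Mx2* had 0.10 ± 0.19.

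The interferon-inducible GTPases, which gather on the membranes of vacuoles that hold microbes, had 2 of 10 higher and 0 lower (median 0.24). *Gbp2* (ENSMUSG00000028270, chr3:142326349-142343779) had 10.9, 14.5 and 22.9 CPM in wildtype and 16.9, 25.4 and 85.3 CPM in PKD. The top value belonged to PKD replicate 2 and the next PKD kidney had 29.6 CPM. It was 0.94 ± 0.22 higher (adjusted p = 0.00082) and 0.67 ± 0.15 without PKD replicates 2 and 10 (adjusted p = 0.00047). *Igtp*, an immunity-related GTPase, had 11.1, 14.7 and 30.6 CPM in wildtype and 17.8, 21.2 and 53.4 CPM in PKD, with overlap, and the highest wildtype kidney was replicate 8. Its difference was 0.53 ± 0.17 (adjusted p = 0.01), 0.74 ± 0.19 against the R libraries and 0.26 ± 0.24 against the others, which was not called (adjusted p = 0.4). *Igtp* and *Irgm2* share annotated exons on the same strand.

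PKD replicate 2 was the highest PKD kidney for 9 of the 10 GTPases, all but *Gbp7*, with a median deviation of 1.07. Its median over the ISG15 and IFIT group, 0.21, was close to those of PKD replicates 1 and 11, at 0.20. Its high values were not confined to the GTPases, as it was the highest PKD kidney for 18 of the 47 members. For the sensors (0.31) and the PARP and ubiquitin ligase genes (0.38) its median was also the highest of PKD. *Gbp3*, the smallest change of the GTPases, had 23.0, 41.7 and 52.1 CPM in the R libraries, 10.7, 14.7 and 22.3 CPM in the others and 21.5, 25.6 and 36.3 CPM in PKD. It was called at -0.58 ± 0.13 against the R libraries (adjusted p = 0.00024) and at 0.72 ± 0.16 against those without R (adjusted p = 0.00069). *Gbp7* had 15.9, 33.6 and 54.4 CPM in wildtype and 25.6, 34.0 and 49.1 CPM in PKD, with a difference of 0.07 ± 0.16. *Irgm1* (0.17 ± 0.11), *Irgm2* (0.22 ± 0.14), *Iigp1* (0.23 ± 0.20), *Ifi47* (0.25 ± 0.17), *Gm12250* (0.31 ± 0.23) and *Gbp6* (0.32 ± 0.23) were not called either.

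Neither immunoproteasome subunit was called between PKD and wildtype (median 0.07). *Psmb8* had 15.2, 31.1 and 49.1 CPM in wildtype and 24.8, 30.8 and 39.2 CPM in PKD (0.07 ± 0.15). *Psmb9*, which shares annotated sequence with *Tap1* on the other strand, had 7.81, 14.6 and 22.0 CPM in wildtype and 10.9, 14.5 and 18.8 CPM in PKD (0.08 ± 0.14). For both genes the PKD range lay inside that of wildtype, and both were called higher against the 3 libraries without R.

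Among the PARP and ubiquitin ligase genes, 2 of 4 were higher and 0 lower (median 0.21). *Rnf213* (ENSMUSG00000070327), a large ubiquitin ligase, had 52.8, 73.7 and 102 CPM in wildtype and 63.0, 133 and 158 CPM in PKD. It was 0.79 ± 0.13 higher (1.72-fold, adjusted p = 8.2e-06), and unlike most members it differed more from the R libraries (0.92 ± 0.15) than from the others (0.59 ± 0.19). *Parp14*, a mono-ADP-ribosyltransferase, was 0.34 ± 0.13 higher (adjusted p = 0.028), with 0.11 ± 0.12 against the R libraries, not called, and the call was lost without wildtype replicate 4, 6 or 7. *Dtx3l*, a ubiquitin ligase that overlaps its partner *Parp9* on the other strand, had 15.0 to 21.6 CPM in the R libraries, 9.08 to 12.8 CPM in the others and 12.1 to 19.6 CPM in PKD. Its difference was -0.33 ± 0.11 against the R libraries (adjusted p = 0.0088) and 0.35 ± 0.13 against those without R (adjusted p = 0.033), and *Parp9* itself had 0.07 ± 0.09 against all 8.

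Of the other members, 1 of 5 was higher and 1 lower (median 0.04). *Ifi44* (ENSMUSG00000028037, chr3:151436559-151455625) had 14.0, 24.6 and 29.0 CPM in the R libraries and 7.08, 7.43 and 7.58 CPM in the other 3, and the 12 PKD kidneys, from 9.82 to 13.5 CPM, fell in the gap. It was called lower against all 8 (-0.51 ± 0.19, adjusted p = 0.022), lower against the R libraries (-0.94 ± 0.11, adjusted p = 3.7e-08) and higher against the others (0.61 ± 0.11, adjusted p = 8.5e-05). Without wildtype replicate 1, 3 or 5 the call against all wildtype kidneys was lost. *Ifi35* had 16.6, 18.9 and 21.7 CPM in wildtype and 18.7, 22.5 and 24.7 CPM in PKD, a small difference of 0.23 ± 0.06 that was called (adjusted p = 0.0024). *Xaf1*, a partner of the apoptosis inhibitor XIAP, had -0.26 ± 0.11 against the R libraries and 0.65 ± 0.14 against the others. *Sp100*, a nuclear body protein, had -0.23 ± 0.09 and 0.28 ± 0.10, and *Ifi27* was not called (0.16 ± 0.09).

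**Figure D3:**
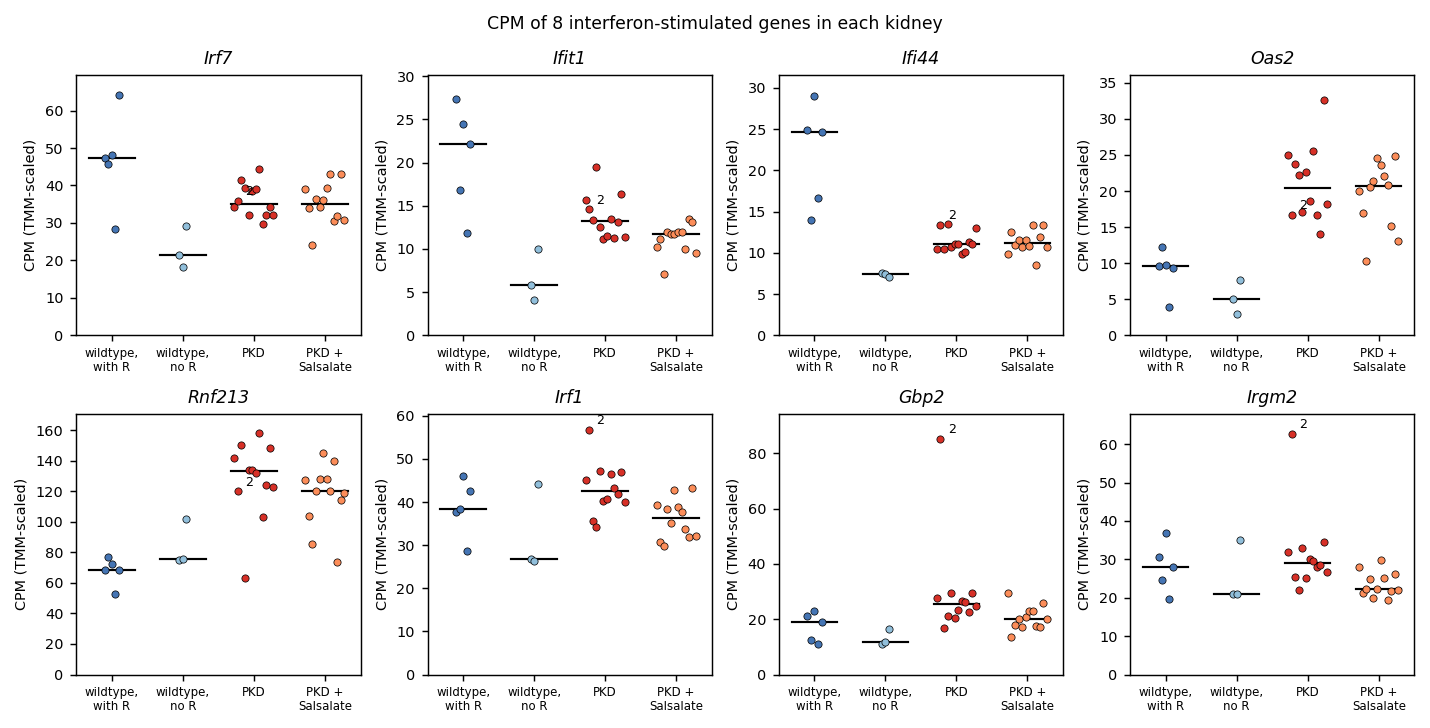
CPM (y axis, from 0) of 8 interferon-stimulated genes in each kidney (points) of the wildtype libraries named with R, the wildtype libraries named without R, PKD and PKD + Salsalate; lines are medians and 2 marks PKD replicate 2. *Irf7*, *Ifit1* and *Ifi44* split the wildtype sets around PKD, *Oas2* and *Rnf213* are high in both PKD groups, and *Gbp2* and *Irgm2* have PKD replicate 2 on top at 85.3 and 62.7 CPM.

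The wildtype sets were then compared with each other in a fit of 4 groups, an analysis added after the data were seen. Of the 46 members, 29 were higher in the R libraries and 0 lower, with a median log2 fold change of 0.62. Over all genes tested, 24.4% were called higher and 23.7% lower in the R libraries, with a median of 0.02. In 12 members, *Ifih1*, *Eif2ak2*, *Isg15*, *Ifit1*, *Mx2*, *Rsad2*, *Cmpk2*, *Gbp3*, *Psmb8*, *Dtx3l*, *Ifi44* and *Xaf1*, every R library was above every other wildtype kidney. This held for 22.4% of all genes, a share near that of the members. The reverse held for 0 members, and its share of all genes was not counted. The largest differences were in *Ifit1* (1.60 ± 0.24, adjusted p = 2.4e-06), *Ifi44* (1.56 ± 0.17, adjusted p = 1.3e-08), *Gbp3* (1.31 ± 0.21, adjusted p = 5.2e-06) and *Oas1a* (1.08 ± 0.23, adjusted p = 0.00023). Members that were not called included *Samd9l* (-0.06 ± 0.12), *Rnf213* (-0.32 ± 0.20), *Igtp* (-0.47 ± 0.26) and *Trim25* (-0.12 ± 0.09). With any 1 wildtype kidney left out, between 21 and 35 members were called higher and 0 lower. Over all genes, between 2648 and 3431 were called higher there and between 2542 and 3281 lower.

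Other measures moved with this split. The marker calls below stand beside 24.4% of all genes called higher in the R libraries and 23.7% called lower. The 6 proximal tubule markers summed to between 6068 and 8143 CPM in the R libraries and between 10499 and 12083 CPM in the other 3, and 5 of 6 were called lower. The 6 distal nephron and collecting duct markers summed to between 3433 and 4446 CPM against 5226 to 5587 CPM, with 3 called lower, and the 6 endothelial markers to between 356 and 446 CPM against 309 to 326 CPM, with 3 called higher. The 3 pan-leukocyte markers summed to between 58.5 and 114 CPM in the R libraries and between 48.7 and 71.6 CPM in the others, with 2 of 3 called higher. For the 12 macrophage markers the sums were 277 to 397 CPM and 255 to 296 CPM, with 2 called higher and 1 lower. Totals on genes were between 11278382 and 16473782 in the R libraries and between 17011675 and 28290874 in the others. The part of these values in the difference of the interferon-stimulated genes was not tested.

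The comparison of PKD + Salsalate with PKD asks whether the response changed with 2 weeks of salsalate. By edgeR's quasi-likelihood test 0 of the 46 members were called, where 0.251% of all genes were called higher and 0.329% lower. DESeq2's Wald test and limma-voom also called 0 members, and 11 of 46 had an unadjusted p under 0.05, against 10.3% of all genes. The log2 fold changes were small and mostly below 0, in 44 of 46 members, with a median of -0.13 and a range from -0.54 to 0.02, and the median of all genes was -0.01. Only *Ifi27* (0.02 ± 0.08) and *Ifi44* (0.00 ± 0.17) were not below 0. The members were measured in the same kidneys, so the number below 0 is not a count of independent results.

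The GTPases had the largest differences. All 10 were below 0, from -0.54 to -0.22 with a median of -0.44, and 8 had an unadjusted p under 0.05, although 0 passed after adjustment. *Irgm2* (ENSMUSG00000069874), which regulates the other GTPases, had the smallest p of the members, with 22.0, 28.9 and 62.7 CPM in PKD and 19.5, 22.4 and 29.7 CPM in PKD + Salsalate. Most treated kidneys lay in the lower part of the PKD range, and the difference was -0.42 ± 0.13 (unadjusted p = 0.002, adjusted p = 0.11). *Irgm1*, of the same regulatory kind, had 52.9, 60.3 and 105 CPM in PKD and 41.8, 50.9 and 58.5 CPM in PKD + Salsalate (-0.31 ± 0.10, adjusted p = 0.15).

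*Igtp* had 17.8, 21.2 and 53.4 CPM in PKD and 14.6, 17.2 and 23.7 CPM in PKD + Salsalate (-0.46 ± 0.15, adjusted p = 0.17). *Gbp2* had 16.9, 25.4 and 85.3 CPM in PKD and 13.6, 20.1 and 29.4 CPM in PKD + Salsalate (-0.54 ± 0.19, adjusted p = 0.22). *Gm12250* (Irgb10) was close to the detection limit, with 1.13, 1.71 and 3.52 CPM in PKD and 0.915, 1.30 and 2.00 CPM in PKD + Salsalate (-0.52 ± 0.20, adjusted p = 0.30). The groups overlapped in each of these genes, and the highest kidney in all 5 was PKD replicate 2.

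Without PKD replicates 2 and 10 the median of the 9 GTPases still tested was -0.25, again with all below 0 (from -0.31 to -0.17), and 7 of 45 members had an unadjusted p under 0.05. The share of all genes with such a p was not counted in this setting. *Gbp2* went to -0.27 ± 0.13, *Igtp* to -0.29 ± 0.12, *Irgm2* to -0.28 ± 0.10 and *Irgm1* to -0.23 ± 0.08. Here 0 members were called, beside 25 higher and 22 lower of all 13936 genes. *Gm12250* no longer passed the filter there. These differences were smaller without both replicates. PKD replicate 2 was left out because of its high GTPase values, so a smaller difference was largely fixed in advance. The parts of the 2 replicates cannot be told apart in this fit.

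**Figure D4:**
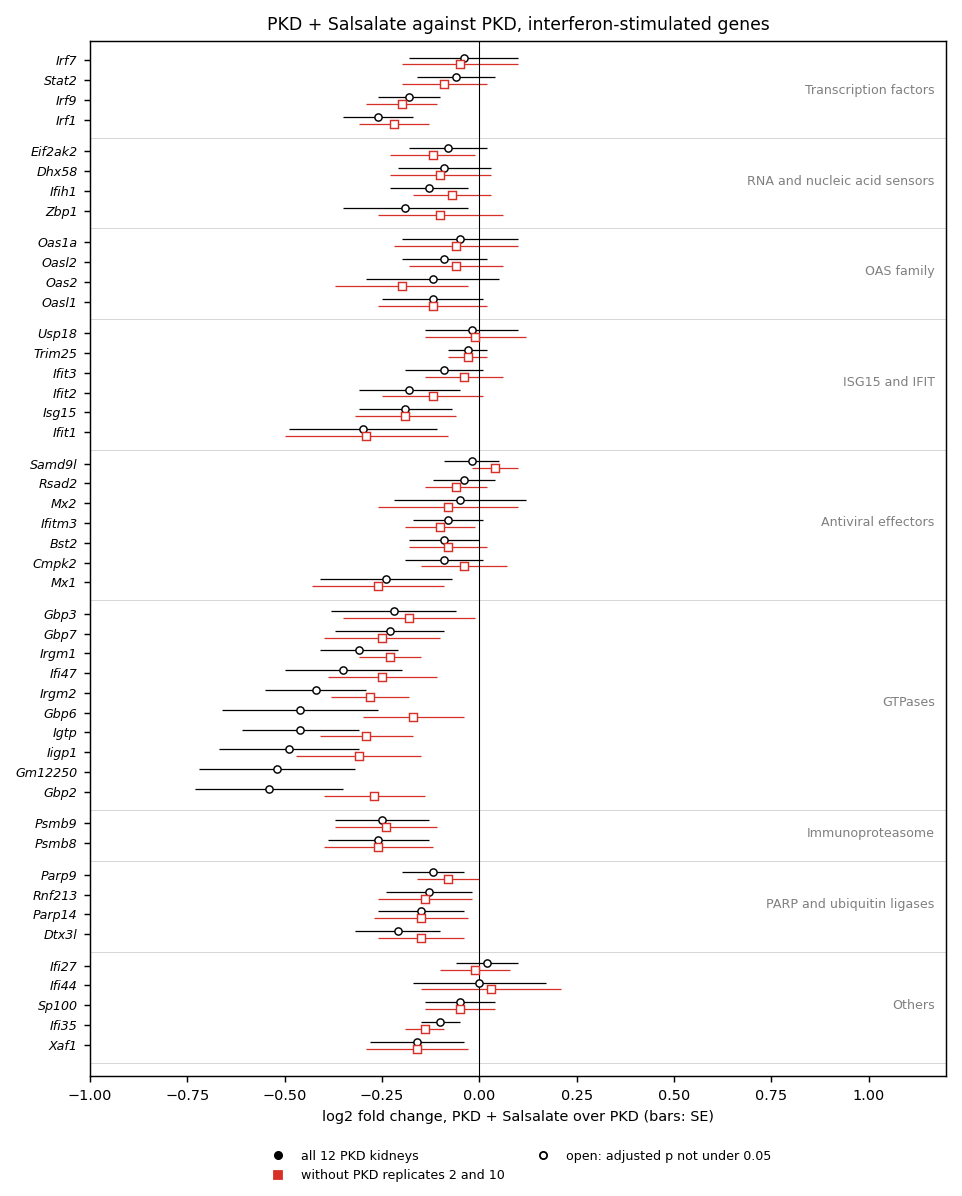
Log2 fold change of PKD + Salsalate over PKD (x axis, bars are the SE) for each of the 46 tested interferon-stimulated genes, grouped by role, with all 12 PKD kidneys (circles) and without PKD replicates 2 and 10 (squares); open symbols have an adjusted p not under 0.05. All symbols are open, nearly all lie left of 0, and the GTPases reach -0.54 with all kidneys and -0.31 without both replicates.

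Outside the GTPases, *Irf1* had the lowest p, with 34.1, 42.6 and 56.8 CPM in PKD and 29.7, 36.4 and 43.2 CPM in PKD + Salsalate (-0.26 ± 0.09, unadjusted p = 0.0071, adjusted p = 0.21). *Irf9* had 27.8, 32.2 and 37.1 CPM in PKD + Salsalate and a difference of -0.18 ± 0.08 (adjusted p = 0.44). *Psmb9* (-0.25 ± 0.12, adjusted p = 0.47) was the remaining member with an unadjusted p under 0.05. The groups overlapped for all 3. The members with the largest rise in PKD had differences of -0.12 ± 0.17 (*Oas2*), -0.54 ± 0.19 (*Gbp2*), -0.24 ± 0.17 (*Mx1*), -0.13 ± 0.11 (*Rnf213*) and -0.08 ± 0.09 (*Ifitm3*). By role the medians were -0.12 for the transcription factors, -0.11 for the sensors, -0.10 for the OAS family, -0.13 for the ISG15 and IFIT group, -0.08 for the antiviral effectors, -0.26 for the immunoproteasome, -0.14 for the PARP and ubiquitin ligase genes and -0.05 for the others. Leaving out any 1 kidney gave 0 calls each time, beside 20 to 93 higher and 19 to 133 lower of all genes.

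PKD + Salsalate kidneys were also set against wildtype, to ask which differences from wildtype were present under treatment. Of 46 members, 10 were higher and 3 lower, where 21.8% and 23.2% of all genes were called, and the median was -0.03. The higher members were *Zbp1*, *Oas2*, *Oasl1*, *Oasl2*, *Ifit2*, *Mx1*, *Bst2*, *Ifitm3*, *Samd9l* and *Rnf213*, and the lower were *Cmpk2*, *Dtx3l* and *Ifi44*. The wildtype kidneys are the same as in the comparison with PKD, so the lists of calls are not independent.

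*Oas2* again led, with 10.3, 20.6 and 24.8 CPM against 2.98, 8.48 and 12.2 CPM in wildtype (1.37 ± 0.20, adjusted p = 2.1e-06), and the groups overlapped only at their ends. *Mx1* had 1.97, 4.10 and 5.84 CPM (0.65 ± 0.20, adjusted p = 0.0081) and *Rnf213* 73.5, 120.2 and 145 CPM (0.66 ± 0.13, adjusted p = 0.00011). *Gbp2* (0.40 ± 0.22, adjusted p = 0.14), *Igtp* (0.07 ± 0.17), *Irf1* (0.00 ± 0.10) and *Irf9* (0.13 ± 0.09), which were called between PKD and wildtype, were not called here, but their difference between PKD + Salsalate and PKD was not called either. The same held for *Isg15*, *Parp14* and *Ifi35*. *Gbp2* was called without PKD replicate 2, and without PKD replicates 2 and 10 it had 0.40 (adjusted p = 0.023).

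*Dtx3l* had 9.02, 12.3 and 14.2 CPM in PKD + Salsalate, below each R library and across the range of the others (-0.31 ± 0.12 against all 8, adjusted p = 0.031). Without wildtype replicate 1, 3 or 5 neither *Dtx3l* nor *Ifi44* was called (highest adjusted p 0.12 for each), and *Dtx3l* was not called without PKD + Salsalate replicate 5 or 10 either. *Oasl2* and *Ifit2* were not called without wildtype replicate 4, 6 or 7 or PKD + Salsalate replicate 11 (*Ifit2* also without wildtype replicate 2 or 8), and *Zbp1* was lost on leaving out any 1 of 10 kidneys (wildtype replicates 2, 4, 6 and 7 and PKD + Salsalate replicates 1, 4, 7, 8, 11 and 12). Against the R libraries alone 5 members were higher and 15 lower (29.7% and 28.4% of all genes), with a median of -0.16. Against the other 3 alone, 27 of 45 were higher and 0 lower (18.3% and 16.5% of all genes), with a median of 0.45. Called higher against either set were 4 members, *Oas2*, *Bst2*, *Ifitm3* and *Rnf213*. Opposite calls were made for 9 members, *Gbp3*, *Ifit1*, *Psmb8*, *Ifi44*, *Eif2ak2*, *Irf7*, *Xaf1*, *Rsad2* and *Gbp7*. The shares of all genes with opposite calls or with calls higher against both sets were not counted.

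The genes upstream of the response were read in the same fit. Of 11 interferon genes looked up, 0 passed the filter. *Ifng* was the most frequent, with 37 reads in all over 21 of 32 kidneys and at most 0.189 CPM, and *Ifnb1* had 3 reads in 2 kidneys. *Ifna4*, *Ifna5*, *Ifne*, *Ifnk* and *Ifnl2* had 0 reads in each kidney, and *Ifna1*, *Ifna2*, *Ifnab* and *Ifnl3* had between 1 and 9 reads in all. At these depths differences in interferon transcripts between groups were not detectable.

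All 6 receptor genes were higher in PKD, against all wildtype kidneys and against either set alone (median 0.67 against all). Of all genes, 24.1% were called higher against all wildtype kidneys, 30.7% against the R libraries and 20.9% against the others. The share of all genes called higher against both sets was not counted. *Ifnar1* and *Ifnar2*, the type I receptor chains, had 35.9, 43.1 and 46.7 CPM and 15.7, 19.7 and 21.7 CPM in wildtype. In PKD they had 57.3, 63.1 and 68.6 CPM and 21.9, 24.3 and 26.5 CPM, without overlap (0.59 ± 0.05, adjusted p = 9.2e-11, and 0.35 ± 0.06, adjusted p = 1.1e-05). *Ifngr1* (0.71 ± 0.09) and *Ifngr2* (0.70 ± 0.09), the receptor of interferon gamma, and *Il10rb* (0.64 ± 0.07), shared with the interleukin-10 receptor, rose as well. *Ifnlr1*, the receptor chain of interferon lambda, had 2.75, 4.49 and 7.00 CPM in wildtype and 6.80, 10.9 and 11.7 CPM in PKD (1.08 ± 0.13, adjusted p = 3.6e-08).

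Downstream of the receptors, *Stat3*, which also serves the interleukin-6 family, was 0.49 ± 0.08 higher (adjusted p = 6.8e-06). *Jak1* (-0.09 ± 0.06), *Jak2* (-0.07 ± 0.07) and *Tyk2* (-0.11 ± 0.07) were not called, although *Jak1* was lower than in the R libraries (-0.21 ± 0.06, adjusted p = 0.0034). *Socs3*, an inhibitor of cytokine receptors, had 3.36, 4.26 and 5.52 CPM in wildtype and 14.6, 21.3 and 35.1 CPM in PKD (2.42 ± 0.20, adjusted p = 7.2e-12), while *Socs1*, the main brake on interferon signaling, was not called (0.22 ± 0.15).

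**Figure D5:**
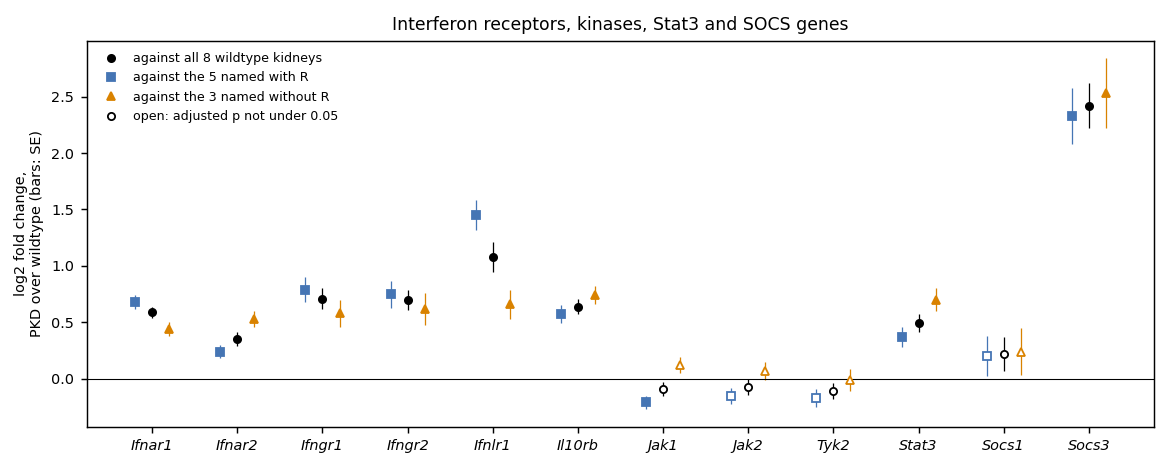
Log2 fold change of PKD over wildtype (y axis, bars are the SE) of interferon receptors, kinases, *Stat3* and SOCS genes against all 8 wildtype kidneys (circles), the 5 named with R (squares) and the 3 named without R (triangles); open symbols have an adjusted p not under 0.05. The 6 receptor genes, *Stat3* and *Socs3* lie above 0 against each set, and *Socs3* reaches 2.42.

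A further 61 interferon-stimulated genes that are not members gave 56 tested, with 13 higher and 3 lower in PKD (24.1% and 25.0% of all genes) and a median of 0.19. They depended on the wildtype libraries in a similar way, with 13 higher and 7 lower against the R libraries (30.7% and 28.9% of all genes) and 41 higher and 0 lower of 55 against the others (20.9% and 19.9%). Between the wildtype sets, 35 of 56 were higher in the R libraries and 4 lower (24.4% and 23.7% of all genes). Of the 12 tested genes listed as sensors and adaptors, 8 were higher in PKD and 0 lower, and of 6 further IRF genes 3 were higher and 1 lower, beside the same 24.1% and 25.0% of all genes. In PKD + Salsalate against PKD, where 0.251% of all genes were called higher and 0.329% lower, the sole call among 92 pathway genes was *Cxcl10*. This interferon-inducible chemokine is named here because of this call. It had 9.53, 15.2 and 23.2 CPM in PKD and 6.97, 10.3 and 14.0 CPM in PKD + Salsalate (-0.62 ± 0.14, adjusted p = 0.03), and the call was lost without PKD replicates 2 and 10 together (-0.58 ± 0.15, adjusted p = 0.079) and without any 1 of 9 kidneys (PKD replicates 1, 2, 9 and 11 and PKD + Salsalate replicates 2, 3, 5, 9 and 12).

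Markers of immune cells and of injured tubule moved with the comparison of PKD and wildtype too. Their calls stand beside 24.1% of all genes called higher in PKD and 25.0% called lower. The 12 macrophage markers, 0 of them at 0 reads throughout a group, summed to between 255 and 397 CPM in wildtype, between 482 and 664 CPM in PKD and between 420.4 and 729 CPM in PKD + Salsalate. In PKD 11 of the 12 were called higher and 1 lower (median 1.38). Pan-leukocyte markers summed to between 48.7 and 114 CPM in wildtype and between 107 and 165 CPM in PKD, with 2 of 3 higher. The 7 dendritic cell markers summed to between 18.0 and 44.2 CPM in wildtype and between 30.6 and 44.7 CPM in PKD, with 2 of 4 tested higher, and the 5 neutrophil markers to between 1.89 and 4.19 CPM and between 5.30 and 8.42 CPM, with the 1 tested higher. Of 12 lymphocyte markers 4 were tested, 2 higher and 1 lower, and their sum was between 9.84 and 22.4 CPM in wildtype and between 10.9 and 21.1 CPM in PKD. Markers of injured tubule were all higher, 4 of 4, with sums from 2.94 to 4.82 CPM in wildtype and from 61.8 to 174 CPM in PKD. In PKD + Salsalate against PKD, 0 markers of macrophages, lymphocytes or injured tubule were called, beside 0.251% of all genes called higher and 0.329% lower. The part of these cells in the levels of the interferon-stimulated genes was not tested.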

How the data were processed

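RNA sequencing counts of 32 mouse kidneys were used. The authors deposited raw read counts per gene, made per the submitters' notes with bcl2fastq 2.20, cutadapt 2.10, FastQC, STAR 2.7.5a and HTSeq 0.12.4 on GRCm39, from poly(A) libraries of a directional kit counted, per the study's methods, with a stranded setting, whose match to the kit was not checked here. Reads with several alignments were not counted, so members with close copies (*Oas1a*, *Gbp6*, *Ifit3*) can be undercounted. Of the 53700 gene IDs, 52610 were named through GENCODE M39 annotation of GRCm39. The 5 summary lines of the table were kept out of library totals. They held 7.60% to 16.4% of alignments on no gene, 7.13% to 9.82% not unique and 1.47% to 1.69% ambiguous, and 73.6% to 83.1% lay on genes.

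The 13961 genes that exceeded 1 on the log2 CPM scale in 25% or more of the kidneys entered the tests. Counts of all 3 groups were fitted in 1 model with edgeR 4.0.16 (R 4.3.3, TMM, quasi-likelihood test), with no covariate. Benjamini-Hochberg adjustment was over all genes kept, and a call was an adjusted p under 0.05. A prior count of 2 was used for log2 CPM values, not set for the fold changes. The SE is the size of the log2 fold change divided by the square root of the F statistic. The smallest library held 11193136 counts, where 1 CPM is about 11 reads. DESeq2 1.42.0, limma 3.58.1 (voom), other normalizations and filters, a fit of 2 groups, either set of wildtype libraries, a replicate block and leaving out each kidney were alternatives. Leaving out PKD replicates 2 and 10 together and comparing the wildtype sets were added after the data were seen. The replicate numbers are shared between groups, but same-numbered kidneys did not deviate together (correlations from -0.55 to 0.47).

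The 47 members and all lists were chosen with earlier results of these data known. Genes described one by one were, per role, those with the largest and the smallest log2 fold change between PKD and wildtype, the 5 with the smallest p between PKD + Salsalate and PKD, those called in opposite directions against the wildtype sets, *Irf1*, *Irf7*, *Irf9*, *Stat2* and *Gm12250*, and for the pathway the ligands, receptors, JAK kinases, *Stat3*, *Socs1* and *Socs3*. A further pathway gene of this rule is not reported here. Others are named as members of a count. The p-values measure the spread between kidneys.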

Additional observations from a re-analysis of the deposited data

Results flagged for a closer look

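*Samd9l* had 112 CPM in wildtype replicate 4, while the nearest wildtype kidney had 128 CPM. This gap was 0.618 of the range of the 8 wildtype kidneys, above Dixon's critical value. *Igtp* had 30.6 CPM in wildtype replicate 8 and 18.4 CPM in the nearest wildtype kidney, a gap of 0.626 of the range. These were 2 of 47 members in which a wildtype kidney stood far from the others, and chance alone flags about 1 in 20 groups.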

How the results depend on the processing

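Of the 46 members, 19 were called between PKD and wildtype and 13 between PKD + Salsalate and wildtype. With each kidney left out in turn, these counts ranged from 17 to 20 and from 10 to 14, and calls between PKD + Salsalate and PKD were 0 throughout. Over all genes, 3026 to 3665 were called higher and 3090 to 3708 lower in PKD against wildtype. In PKD + Salsalate against wildtype 2712 to 3420 were called higher and 2861 to 3447 lower. Between the wildtype sets, with each wildtype kidney left out, 21 to 35 members were called, beside 2648 to 3431 higher and 2542 to 3281 lower of all genes. The wildtype libraries moved the counts most. Against the 3 without R, 38 members were called between PKD and wildtype and 27 between PKD + Salsalate and wildtype, and against the R libraries 20 between PKD + Salsalate and wildtype. The log2 fold changes that changed sign and were called before or after the change were, for PKD against wildtype without R, *Irf7* 0.64, *Ifih1* 0.39, *Eif2ak2* 0.48, *Usp18* 0.38, *Ifit1* 1.01, *Rsad2* 0.31, *Cmpk2* 0.16, *Gbp3* 0.72, *Dtx3l* 0.35, *Ifi44* 0.61 and *Sp100* 0.28, and against the R libraries *Xaf1* -0.26. For PKD + Salsalate against wildtype without R these were *Irf7* 0.61, *Eif2ak2* 0.40, *Usp18* 0.37, *Ifit1* 0.72, *Rsad2* 0.27, *Cmpk2* 0.08, *Gbp3* 0.50, *Gbp7* 0.47, *Psmb8* 0.45, *Dtx3l* 0.14, *Ifi44* 0.62 and *Xaf1* 0.49. The cause was not tested. Over all alternatives and members, another 55 values (PKD against wildtype) and 41 values (PKD + Salsalate against wildtype) changed sign without a call. DESeq2 and limma-voom called 17 higher and 2 lower, and 19 higher and 0 lower, between PKD and wildtype (over all 13961 genes 3251 and 3836, and 3546 and 3254). With the replicate number as a block, 16 members were higher and 1 lower in PKD (3014 and 2825 of all genes), 9 and 1 in PKD + Salsalate against wildtype (2791 and 2601), and 0 between PKD + Salsalate and PKD. At the lowest depth genes near 1 CPM rest on about 11 reads.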
